A study of Mus musculus with 96 samples.

Results

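Gene families known for adding or removing methyl groups, or removing acetyl groups, on histones were described in single mouse embryonic stem (ES) cells. They were histone demethylases (Kdm), deacetylases (Hdac and the sirtuins, Sirt), arginine methyltransferases (Prmt) and methyltransferases with a SET domain (Ehmt, Setd and Suv). Not all members act mainly on histones: Prmt3 methylates a ribosomal protein, and Sirt3, Sirt4 and Sirt5 are mitochondrial. Members were chosen by gene symbol and by a minimum mean of 10 reads per cell, and not by how they varied between cells. Of 53 gene rows with such a symbol, 50 reached that mean and form the set; 11746 of the 23284 gene rows did so. Another 5 rows, Kdm5c, Kdm5d, Kdm6a, Hdac6 and Hdac8, were left out by the rule. Below the minimum lay Kdm4d, with a mean of 2.52 reads per cell, Prmt8, with 0.0208, and Hdac9, with 0. Just above it lay Hdac10, with 15.8 reads per cell, and Hdac7, with 30.3. Hdac7 had a read in 9 cells and reached the minimum mainly through 1 of them.

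All 48 cells belong to 1 group: J1 ES cells, an established mouse line, at passage 12 to 20, kept without feeder cells in medium with serum and leukaemia inhibitory factor (LIF), a cytokine that holds ES cells undifferentiated. Each cell was captured on a microfluidic chip, and its amplified library was read on 2 lanes, giving 96 samples. The labels name no separate culture, so the group counts as 1 sample, no condition was compared, and no p below extends past these cells. Cells held 4408953 to 9767245 reads in genes (median 7054853), on 8039 to 10291 genes (median 9015).

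Histone acetylation generally accompanies open chromatin, and deacetylases remove it, class I enzymes within large corepressor complexes and sirtuins by using NAD. Histone methylation acts by position: on H3K4 it marks active promoters, on H3K36 transcribed gene bodies, and on H3K9, H3K27 and H4K20 mostly silent chromatin. ES cells in serum are a mixed culture, and several of these enzymes are known to affect how such cells leave the naive state.

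The cells fell into 2 clusters when grouped on genes that exclude the set. The larger, of 35 cells, carried naive pluripotency markers and is called naive pluripotency-like. The smaller, of 13 cells, carried markers of primitive endoderm, the extraembryonic layer of the blastocyst, and is called primitive endoderm-like. The 16 primitive endoderm markers summed to 53.4 to 1488 CPM (read counts scaled to a common library size) in naive-like cells and to at least 11050 CPM in every cell of the smaller cluster. In 7 of the 13 cells, called mixed, the median naive marker reached 10% or more of what the larger cluster had, and in the 6 called endoderm-only it did not. This divides a range and not cell types: the nearest cells stood at 10.4% and 2.91%. In the larger cluster 1 cell stood at 1.95%, below that limit, and the next lowest at 21.5%. Its naive markers summed to 2257 CPM, its primitive endoderm markers to 166 CPM and its primed epiblast markers to 2554 CPM, the highest sum of that list in the cluster. It was kept among the naive-like cells by its cluster, and without it the same genes of the set passed the variance tests below, and 21 differed by 1 log2 unit, the number found with it. Summed naive markers ranged from 1126 to 7424 CPM in naive-like, 1018 to 2171 in mixed and 298.7 to 2001 in endoderm-only cells. Of 6 markers of 2-cell-like cells, 5 had a row in the counts, and none of these had a read in any cell. The 8 fibroblast markers summed to at most 35.9 CPM. Trophectoderm markers, which include keratins also made by endoderm, had a median sum of 41.2 CPM in naive-like and 1792 CPM in endoderm-only cells, with Cdx2 at 0 in all cells. Median reads were 6419369 in naive-like, 7964629 in mixed and 8412357 in endoderm-only cells, and median genes with a read were 9045, 9508 and 8480; the part of these gaps in the results was not tested. Cells are not replicates, so differences between clusters are given as descriptions, without a p.

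Levels were first ordered per length, as CPM per kilobase of exon (median over 48 cells). Prmt7, which adds a single methyl group to arginine, stood highest at 75.2 CPM per kb (quartiles 38.8 and 124.6). The class I deacetylase Hdac1 followed at 71.3 (54.3 and 96.9). Prmt5, the main enzyme of symmetric arginine dimethylation, stood at 65.7 (43.8 and 88.0), and the H3K4 demethylase Kdm1a (LSD1) at 59.9 (25.0 and 86.0). The quartile ranges of these 4 genes overlap, so their order is not separated from the spread between cells. Prmt3, which methylates a ribosomal protein, had 39.7 CPM per kb, and Kdm5b, an H3K4 demethylase of the jumonji family, had 36.8. Genes with the highest level in their own role were Setd8 (H4K20 monomethylation) at 25.2, Ehmt1 (GLP, H3K9 methylation) at 19.3, Sirt6 at 17.3, Kdm4c at 16.0, Setd2 (H3K36 trimethylation) at 12.7 and Setd5 at 11.0 CPM per kb. Kdm3a had 7.93, Kdm6b 7.15, Kdm2b 5.02 and Setd1a 1.74. The lowest within their roles included Hdac2 at 13.4, Kdm3b at 3.82, Kdm2a at 2.74, Setd3 at 1.15, Suv39h2 at 0.600, Suv420h1 at 0.459, Setd7 at 0.0960, Prmt6 at 0.0916 and Kdm4b at 0.0335 CPM per kb. Hdac3 stood close to Hdac2, at 13.7 CPM per kb. Scaled by the longest transcript instead, Hdac2 ranked above Hdac3 (rank 11 against 14 in the set). At the other end the median was 0 for Kdm1b, Hdac7, Hdac10, Hdac11 and Sirt4. Class IIa deacetylases, known from muscle, neurons and endothelium, were low: Hdac4 had 0.803 and Hdac5 0.0772 CPM per kb.

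**Figure D1:**
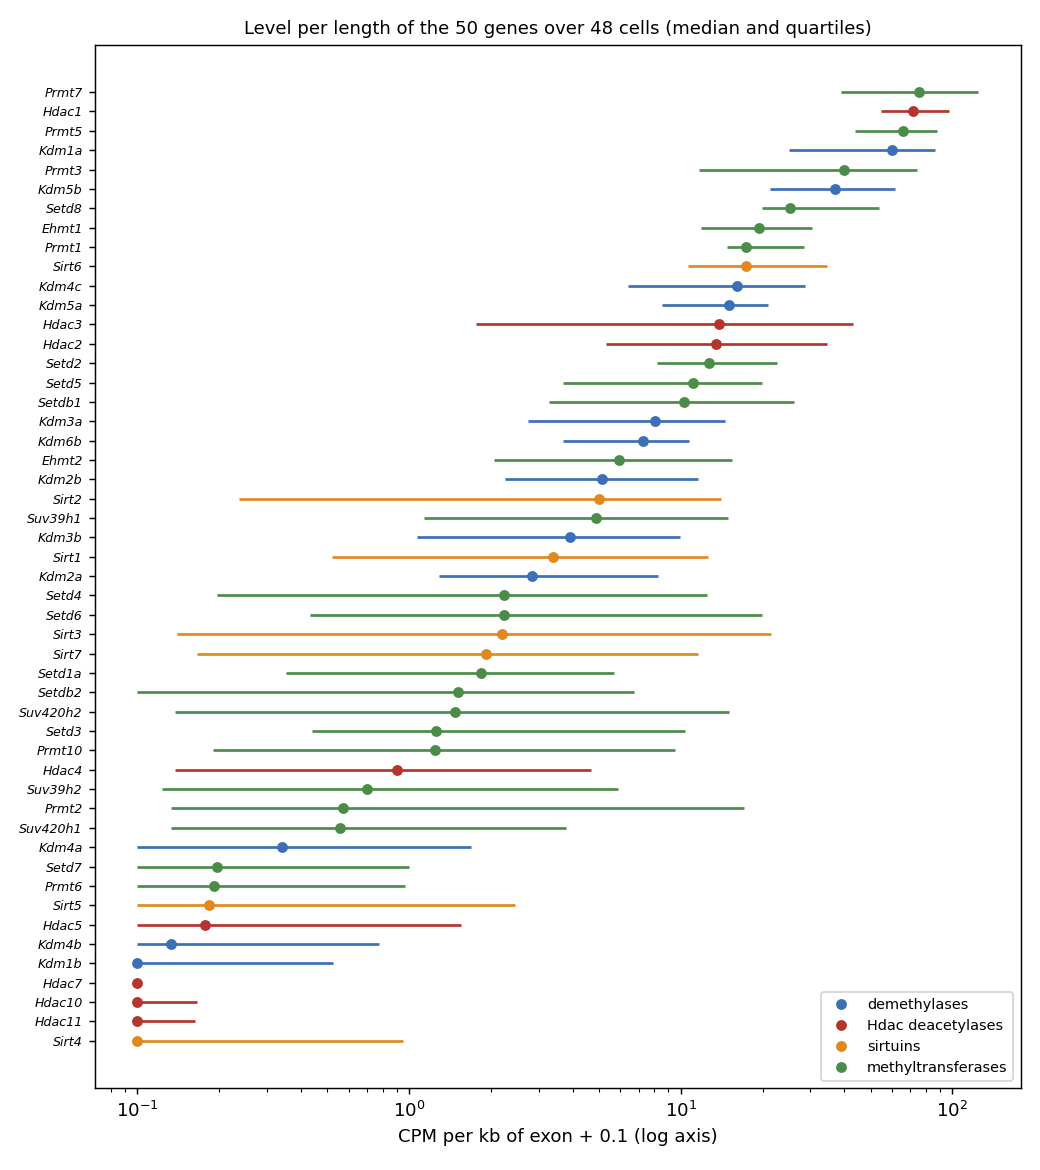
Levels of the 50 genes in CPM per kb of exon plus 0.1, on a log axis, with points at the median of 48 cells and lines from the lower to the upper quartile. Prmt7, Hdac1, Prmt5 and Kdm1a lead with overlapping lines, and 5 genes have a median of 0.

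Detection was counted after thinning every cell to 4408953 reads, with at least 5 reads required. In all 48 cells 9 genes were detected: Kdm1a, Kdm5a, Kdm5b, Kdm6b, Hdac1, Sirt6, Prmt1, Prmt5 and Ehmt1. For each, the share is 100% with an exact Clopper-Pearson 95% interval from 92.6%. The interval treats the 48 cells as independent draws, though they form 1 group and are not replicates. It does not cover read counting or amplification, and amplified reads are not independent molecules. The set's share detected in every cell was 18%, beside 15.3% of all genes tested. Another 31 genes (62%, beside 65.8% of all genes tested) were detected in 10% to 90% of cells. Families divided by gene: the nuclear sirtuin Sirt6 was detected in 48 cells, Sirt1 in 37 and the mitochondrial Sirt4 in 14. Of the class I deacetylases, Hdac1 was detected in 48, Hdac2 in 47 and Hdac3 in 42 cells, whereas Hdac7 of class IIa was detected in 4. Counts of cells move with the reads required, and 14 genes were detected in all cells when 1 read sufficed.

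Spread between cells was compared with the trend of genes of like mean. Kdm5b and Prmt7 varied more than that trend over all 48 cells, and the other 48 genes did not pass. Of all genes tested 2.03% passed, beside 2 of 50 (4%) here, so the set as a whole stood near the background. The median ratio of variance to trend was 1.02 in the set and 1.00 over all genes, and 26 of the 50 genes lay above the trend. Counts at an unadjusted p below 0.05 were 2 in the set and 615 of all genes. The test is modelGeneVar of scran, one-sided, on log2(CPM + 1), Benjamini-Hochberg adjusted over 11746 genes.

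Kdm5b removes di- and trimethyl marks from H3K4. In naive-like cells its level ran from 138 to 1303 CPM with a median of 424. Mixed cells ran from 61.7 to 488 CPM (median 128), and endoderm-only cells from 1.82 to 213 CPM (median 83.0). Every naive-like cell stood above 8 of the 13 cells of the smaller cluster, while the other 5 overlapped the naive range. The variance of log2 values was 2.90, where the trend gave 0.790 (modelGeneVar, adjusted p = 4.20e-09). Among the 35 naive-like cells alone it was 0.687 against a trend of 0.474 and did not pass (modelGeneVar, adjusted p = 0.934). The mean log2 level was 2.42 lower in the smaller cluster (difference -2.42), at -1.49 in mixed and -3.50 in endoderm-only cells. With each cell left out in turn the adjusted p of Kdm5b stayed at or below 4.98e-04 by modelGeneVar.

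Prmt7 showed another pattern. Naive-like cells ran from 3.17 to 1155 CPM (median 344), with 1 cell at 3.17 CPM and the next lowest at 64.5. Mixed cells ran from 91.5 to 308 CPM (median 219) and endoderm-only cells from 0 to 679 CPM (median 143). Apart from the endoderm-only cell at 0, every cell of the smaller cluster lay within the naive range. The variance was 3.33 against a trend of 0.978 over all cells (modelGeneVar, adjusted p = 2.18e-07). Within naive-like cells it was 2.25 against 0.689 (modelGeneVar, adjusted p = 2.27e-07), and Prmt7 was the only one of 49 genes tested there to pass (2.04%), beside 1.75% of all genes. A single cell decides that value: without the naive-like cell at 3.17 CPM the ratio of variance to trend fell from 3.27 to 1.93 and the adjusted p of modelGeneVar rose to 0.247. Over all cells the call of Prmt7 held with any one cell left out (modelGeneVar, highest adjusted p = 0.0245, without the endoderm-only cell at 0).

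At the opposite end lay 4 genes detected in every cell, with ratios of variance to trend from 0.149 to 0.319. Prmt1, the main enzyme of asymmetric arginine dimethylation, had a variance of 0.543 against a trend of 3.65, and its level ran from 18.6 to 164 CPM in naive-like, 18.4 to 71.9 in mixed and 19.6 to 96.5 in endoderm-only cells. Hdac1 had 0.424 against 1.48, with medians of 163, 111 and 176 CPM in the same order. Kdm6b, an H3K27 demethylase, had 1.12 against 3.76. Sirt6, which deacetylates H3K9 and H3K56, had 1.22 against 3.81. The test used is one-sided for high variance, so a low ratio carries no p. The fifth lowest ratio belonged to Kdm4a (3.31 against 4.89). Besides Kdm5b and Prmt7 the highest ratios were those of Prmt3 (variance 4.23 against a trend of 2.86), Kdm3a (6.94 against 4.95) and Setd5 (4.30 against 3.14), each with an adjusted p of 0.906 by modelGeneVar.

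**Figure D2:**
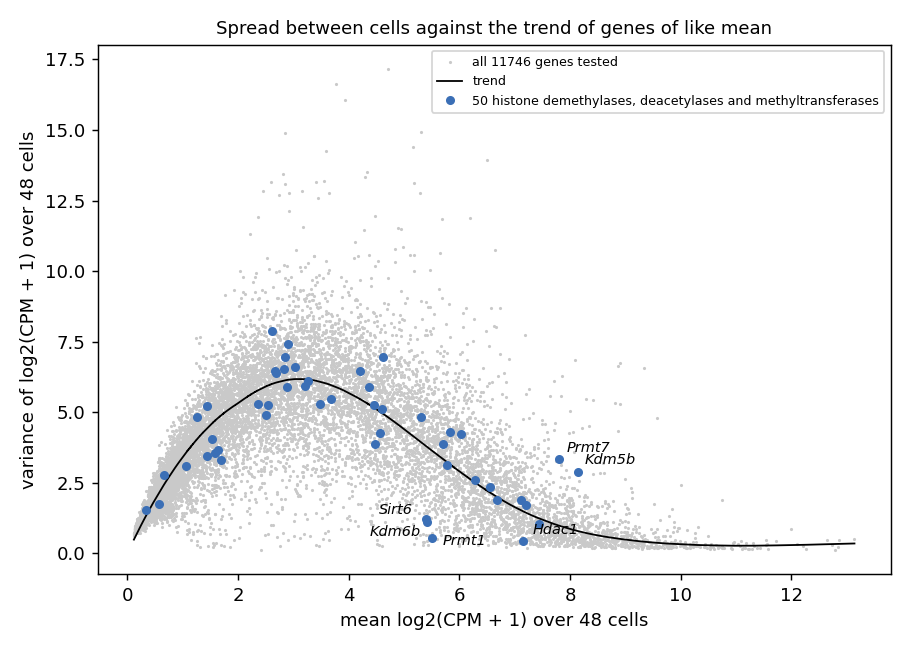
Variance of log2(CPM + 1) over 48 cells against the mean, for all 11746 genes tested (grey), the trend (line) and the 50 genes of the set (blue). Kdm5b (2.90) and Prmt7 (3.33) lie above the trend at high mean, and Prmt1, Hdac1, Kdm6b and Sirt6 lie below it.

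**Figure D3:**
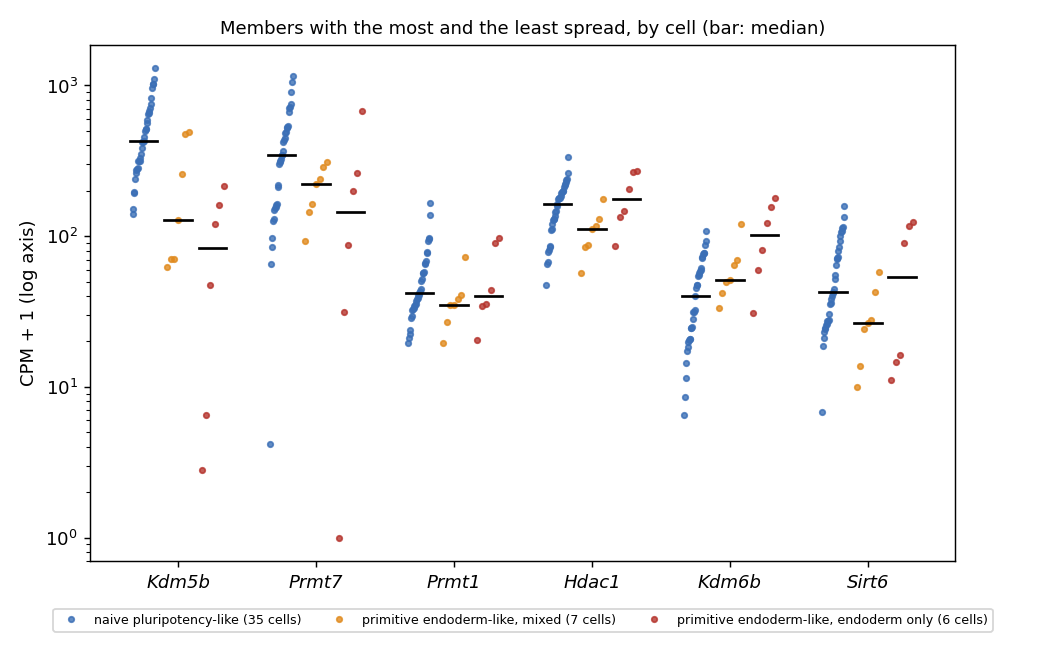
Each point is 1 cell, as CPM plus 1 on a log axis, for 35 naive pluripotency-like, 7 mixed and 6 endoderm-only cells, with bars at medians. Kdm5b steps down from naive-like to endoderm-only cells, Prmt7 has single cells near 0 in both clusters, and Prmt1 and Hdac1 overlap throughout.

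Choice of measure matters for these calls. With the squared coefficient of variation of CPM in place of the variance of log2 values, Kdm5b (adjusted p = 0.411) and Prmt7 (adjusted p = 0.367) no longer passed, and Kdm3a, Kdm4b, Kdm4c and Hdac7 did (scran's modelGeneCV2), beside 731 of all 11746 genes. These 4 genes had a few very high cells: Kdm4b reached 384 CPM in a naive-like cell where the median of that cluster was 0.152, and Kdm4c reached 868 CPM where the median was 53.7. Hdac7 had 224 CPM in 1 endoderm-only cell and at most 8.62 CPM in any other cell.

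Upstream sequence is shown for both genes that passed and for the gene with the lowest ratio, from RefSeq (GRCm38.p6), as the 250 bases before the annotated start, 5′ to 3′ on the gene's strand. Capitals mark exact matches on either strand to the TATA box (TATAAA), the GC box (GGGCGG), the CCAAT box (CCAAT), the E-box (CACGTG) and the octamer (ATGCAAAT); none of these letter strings contains another. A match is a description of letters and not a site in use.
Kdm5b, chr1:134559928-134560177, plus strand: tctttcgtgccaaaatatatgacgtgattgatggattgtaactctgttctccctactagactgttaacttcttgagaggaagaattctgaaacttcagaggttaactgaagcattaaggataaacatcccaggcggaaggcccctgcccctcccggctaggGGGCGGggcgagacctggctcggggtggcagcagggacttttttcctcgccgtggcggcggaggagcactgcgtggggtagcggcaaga
Prmt7, chr8:106210804-106211053, plus strand: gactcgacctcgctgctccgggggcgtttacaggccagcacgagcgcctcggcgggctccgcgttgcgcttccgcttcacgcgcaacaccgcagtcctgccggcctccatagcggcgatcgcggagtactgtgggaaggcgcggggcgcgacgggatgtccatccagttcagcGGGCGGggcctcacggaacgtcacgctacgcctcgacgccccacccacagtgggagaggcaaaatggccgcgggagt
Prmt1, chr7:44986421-44986670, minus strand: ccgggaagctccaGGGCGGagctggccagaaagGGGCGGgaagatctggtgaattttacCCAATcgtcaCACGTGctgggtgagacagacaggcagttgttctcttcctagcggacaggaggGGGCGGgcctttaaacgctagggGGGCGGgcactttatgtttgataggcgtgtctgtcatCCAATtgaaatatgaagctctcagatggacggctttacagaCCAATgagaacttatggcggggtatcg

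Kdm5b and Prmt7 each held 1 GC box and no other match, whereas Prmt1 held 4 GC boxes, 3 CCAAT boxes and 1 E-box. Of the 50 genes, 42 had a RefSeq window, 59 windows in all. A GC box stood in 64.4% of them, beside 58.3% of 10782 windows of genes tested and 32.7% of all 32851 windows. A TATA box stood in 1 window, of Prmt2 (1.69%, beside 6.30% and 12.4%), a CCAAT box in 42.4% (35.8% and 33.8%), an E-box in 10.2% (8.52% and 6.02%) and the octamer in 0 (1.20% and 1.60%). The median number of CpG dinucleotides per window was 18 in the set, 16 over genes tested and 6 over all windows.

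Levels were then compared between the clusters. Lower by at least 1 log2 unit in primitive endoderm-like cells were 17 of the 50 genes (34%), where 16.5% of all genes tested were as much lower. Higher by as much were 4 genes (8%), where 15.9% of all genes were. Hdac7, 1 of these 4, reached the read minimum only through the smaller cluster. In all, 36 genes (72%) had a lower mean, beside 56.4% of all genes, and the median difference was -0.35 in the set and -0.15 over all genes. For no gene of the set were the clusters free of overlap, which is given without the share over all genes tested. By medians 16 genes were lower and 4 higher by as much, beside 16.1% and 16.7% of all genes tested. They were not the same genes as by means. Kdm1b, Kdm2a, Hdac7, Sirt4, Sirt5, Prmt7 and Setd2 were then under 1 log2 unit. Kdm4a, Prmt10, Setdb2, Suv39h1, Setd1a and Setd6 were past it by medians.

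**Figure D4:**
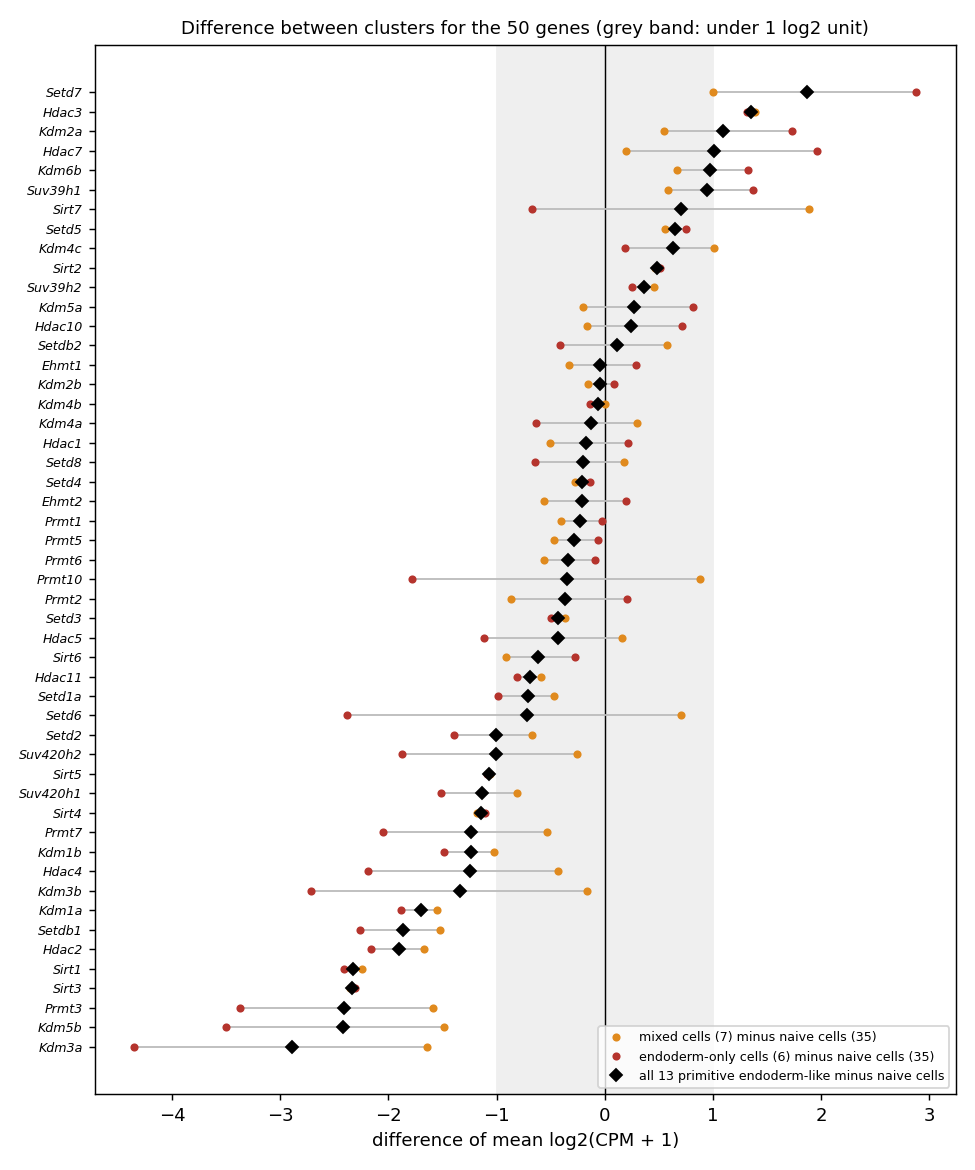
Difference of mean log2(CPM + 1) from the 35 naive pluripotency-like cells, for all 13 primitive endoderm-like cells (diamonds), the 7 mixed cells (orange) and the 6 endoderm-only cells (red); the grey band spans 1 log2 unit either way. Kdm3a, Kdm5b and Prmt3 lie farthest left and Setd7 farthest right.

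H3K4 demethylases were mostly lower, with 3 of 4 past 1 log2 unit by means, where 16.5% of all genes tested were as much lower. Kdm1a, the flavin enzyme that works with CoREST proteins, ran from 36.4 to 730 CPM in naive-like cells (median 204), from 22.2 to 259 in mixed (69.2) and from 14.4 to 277 in endoderm-only cells (32.2). Its difference was -1.70, and 5 cells of the smaller cluster lay below the lowest naive-like cell. Kdm1b, its paralogue known from oocytes, had reads in 16 of 35 naive-like and 5 of 13 endoderm-like cells; the difference was -1.24 by means and 0.00 by medians. Kdm5a, the paralogue of Kdm5b, differed by 0.27, with medians of 186 CPM in naive-like and 161 CPM in endoderm-like cells, and its sign turned when medians were used (-0.21). Thus Kdm5a and Kdm5b, which act on the same mark, had unlike values across the clusters.

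H3K9 demethylases Kdm3a and Kdm3b were both lower. Kdm3a, known for roles in spermatogenesis and metabolism, had the largest difference of the set, -2.89. Its level ran from 0 to 595 CPM in naive-like (median 48.4), 0 to 107 in mixed (14.3) and 0 to 32.7 in endoderm-only cells (0.245). It was detected in 31 of 35 naive-like and 6 of 13 endoderm-like thinned cells. Kdm3b differed by -1.34, with -0.16 in mixed and -2.72 in endoderm-only cells. The Kdm4 enzymes, which act on trimethylated H3K9 and H3K36, stayed within 1 log2 unit by means (Kdm4a -0.13, Kdm4b -0.06, Kdm4c 0.63), and the first 2 changed sign in 1 alternative each. Of the H3K36 demethylases, Kdm2a was 1.09 higher and Kdm2b, which brings a Polycomb complex to CpG islands, differed by -0.05, with a sign that turned in 3 alternatives. Without the endoderm-only cell at 585 CPM the Kdm2a difference was 0.78, and leaving out any of 9 cells brought it under 1 log2 unit. Kdm6b was 0.97 higher, with medians of 39.2 CPM in naive-like, 50.5 in mixed and 101 in endoderm-only cells.

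Class I deacetylases did not move as 1 group. Hdac1 differed by -0.17 (-0.51 in mixed, 0.22 in endoderm-only cells). Hdac2, its partner in the Sin3, NuRD and CoREST complexes, was lower by 1.90 (difference -1.90). It ran from 5.36 to 704 CPM in naive-like (median 86.8), 4.51 to 102 in mixed (21.0) and 0 to 51.7 in endoderm-only cells (33.7). Hdac3, the catalytic subunit of NCoR complexes, was higher by 1.35, with medians of 26.5, 65.6 and 76.0 CPM in the same order, while naive-like cells ran from 0 to 183 CPM and covered nearly the same range. Among class IIa enzymes Hdac4 was lower (-1.24; -0.43 in mixed and -2.19 in endoderm-only cells). Hdac7 was 1.01 higher by means and 0.00 by medians. Without 1 endoderm-only cell at 224 CPM its difference was 0.44, and leaving out any of 3 cells brought it under 1 log2 unit. Among naive-like cells Hdac7 fell below the read minimum, so it entered the set through the cluster where it is higher. Hdac5 differed by -0.43. Hdac10 and Hdac11 were each detected in 7 of 48 thinned cells, so their differences (0.24 and -0.69) rest on few cells.

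Sirtuins had a negative difference in 5 of 7 cases, beside 56.4% of all genes tested. In 4 of them it passed 1 log2 unit, where 16.5% of all genes tested were as much lower. Sirt1, the nuclear deacetylase of H4K16 and p53, ran from 0.494 to 193 CPM in naive-like (median 19.5), 0 to 54.4 in mixed (0.570) and 0 to 84.5 in endoderm-only cells (0.287). Its difference was -2.32, about the same in mixed (-2.25) and endoderm-only cells (-2.42), and 7 of 13 cells lay below the lowest naive-like cell. Sirt3, the main mitochondrial deacetylase, differed by -2.33, and was detected in 3 of 13 thinned endoderm-like cells against 26 of 35 naive-like cells. The mitochondrial Sirt4 (-1.15) and Sirt5 (-1.08) were lower from low levels, but by medians the differences were -0.19 and -0.51. Leaving out any of 6 cells brought Sirt5 under 1 log2 unit, to -0.94 at the smallest. Sirt4 reached 64.2 CPM in a naive-like cell and 1.58 CPM at most in the smaller cluster. Sirt6 (-0.62), Sirt2 (0.49) and Sirt7 (0.71) stayed within 1 log2 unit. Sirt7, a nucleolar sirtuin, stood at 1.89 in mixed and -0.67 in endoderm-only cells, so its sign depended on which cells were used.

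Arginine methyltransferases had a negative difference in all 7 cases, beside 56.4% of all genes tested. The signs of Prmt2 (-0.37) and Prmt5 (-0.28) turned in 1 alternative each. Only Prmt3 and Prmt7 passed 1 log2 unit, where 16.5% of all genes were as much lower. Prmt3 ran from 6.20 to 376 CPM in naive-like (median 138), 7.03 to 142 in mixed (29.6) and 0.307 to 246 in endoderm-only cells (4.12), a difference of -2.41. Prmt7 differed by -1.24, and by -0.66 without the endoderm-only cell at 0. Prmt1 (-0.23) and Prmt5 had the smallest differences, and Prmt6 had -0.34. Prmt10 differed by 0.88 in mixed and -1.78 in endoderm-only cells.

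Among H3K9 methyltransferases only Setdb1, which trimethylates H3K9 at endogenous retroviruses, was lower by 1 log2 unit (-1.87). It ran from 0.873 to 388 CPM in naive-like (median 91.0), 1.17 to 93.2 in mixed (28.8) and 0.307 to 53.3 in endoderm-only cells (14.0). Ehmt1 (-0.05) and Ehmt2 (-0.21), partners in H3K9 dimethylation, differed little and turned sign in some alternatives. Suv39h1, an enzyme of pericentromeric heterochromatin, was 0.95 higher, and Suv39h2 0.36 higher; Setdb2 differed by 0.12 with an unstable sign. For H4K20, Suv420h1 (-1.14) and Suv420h2 (-1.01) were lower, while Setd8, which places the first methyl group, differed by -0.20 with a sign that turned by medians (0.33). Leaving out any of 5 cells brought Suv420h1 under 1 log2 unit, to -0.97 at the smallest. For Suv420h2 any of 24 cells did so, to -0.83 at the smallest. Setd2 was lower by about the size used as a limit (-1.003), and leaving out any of 23 cells brought it under. Without 1 endoderm-only cell at 0.460 CPM the Setd2 difference was -0.56.

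Of the H3K4 methyltransferases, Setd7 had the largest positive difference of the set, 1.87. It ran from 0 to 61.5 CPM in naive-like (median 0.158), 0 to 13.9 in mixed (4.09) and 1.23 to 135 in endoderm-only cells (20.0), and was detected in 11 of 35 naive-like and 11 of 13 endoderm-like thinned cells. The difference was 1.00 in mixed and 2.88 in endoderm-only cells. Setd1a, a subunit of COMPASS-type complexes, differed by -0.71. Of the other SET domain genes, Setd5 was 0.65 higher, Setd3 differed by -0.43 (0.20 by medians), Setd4 by -0.21, and Setd6 stood at 0.70 in mixed and -2.38 in endoderm-only cells.

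**Figure D5:**
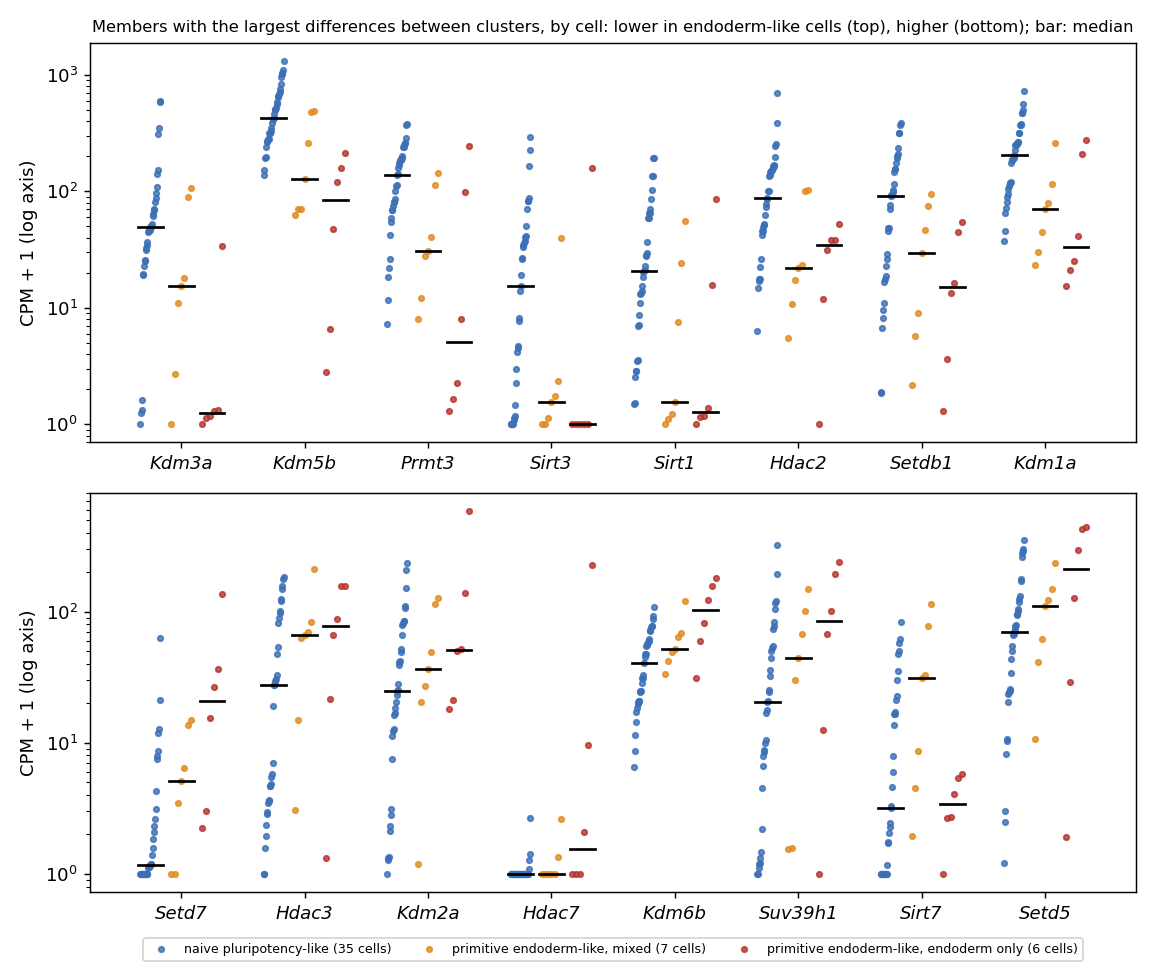
Each point is 1 cell (CPM plus 1, log axis) for the 8 genes with the most negative differences (top) and the 8 with the most positive (bottom), with bars at medians. Naive-like and endoderm-like cells overlap for every gene, and the Hdac7 difference falls to 0.44 without 1 cell at 224 CPM.

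Other genes of the same machinery were read from 5 lists. Beside their counts, 16.5% of all genes tested were lower and 15.9% higher by 1 log2 unit. The variance test was passed by 2.03% of all genes over all cells and by 1.75% within naive-like cells. Of 24 subunits of deacetylase corepressor complexes none passed the variance test (modelGeneVar), 5 were higher and 4 lower by 1 log2 unit. The CoREST scaffolds, with which Kdm1a works, did not all go the same way. Rcor1 had a mean of 8.55 CPM in naive-like and 60.8 CPM in endoderm-like cells (difference 3.56), and Rcor2 had 5.30 and 1.83 CPM (-1.12). Rcor3 had 0.472 and 8.61 CPM (1.09) and fell below the read minimum among naive-like cells. Ncor1, the scaffold of Hdac3, was lower (-1.09), with means of 325 and 179 CPM. Tbl1x, of the same complex, was higher (2.50) and its paralogue Tbl1xr1 lower (-1.39).

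Partners of methyltransferases held 7 of 17 genes lower by 1 log2 unit and 0 higher, beside 16.5% and 15.9% of all genes tested. Of these partners, 3 passed the variance test over all cells, beside 2.03% of all genes. Ash2l and Dpy30, shared subunits of H3K4 methyltransferase complexes, had means of 823 and 672 CPM in naive-like and 345 and 257 CPM in endoderm-like cells (differences -2.03 and -1.81). Their variance passed over all cells by modelGeneVar (adjusted p = 1.00e-25 for Ash2l and 5.58e-04 for Dpy30). Within naive-like cells neither passed (modelGeneVar, adjusted p = 0.934 for each). Trim28, the corepressor that brings Setdb1 to retroviral elements, had a difference of -2.00 and also passed over all cells (modelGeneVar, adjusted p = 5.97e-06). Trim28 did not pass within naive-like cells (modelGeneVar, adjusted p = 0.301). Atf7ip, a cofactor of Setdb1, differed by -2.26. Setdb1, Trim28 and Atf7ip were thus all lower in mean in the same cells. The partners Cbx3 (-0.17), Cbx5 (0.11) and Uhrf1 (-0.26) differed little.

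Of 13 histone acetyltransferase genes, 4 were lower and 0 higher by 1 log2 unit, beside 16.5% and 15.9% of all genes tested. Myst4 passed the variance test over all cells (modelGeneVar, adjusted p = 0.0270), with a difference of -2.22, but not within naive-like cells (adjusted p = 0.633). Of 17 other histone methyltransferases 5 were higher and 2 lower. Nsd1, an H3K36 methyltransferase, passed over all cells (modelGeneVar, adjusted p = 1.48e-04) and among naive-like cells (adjusted p = 1.44e-07), and Smyd5 among naive-like cells only (adjusted p = 1.45e-04, and 0.104 over all cells). Whether the 2 fits of Smyd5 differ was not tested. Of 10 other jumonji genes 2 were higher and 4 lower. Jarid2, a Polycomb cofactor without demethylase activity, passed over all cells (modelGeneVar, adjusted p = 1.25e-70) but not within naive-like cells (adjusted p = 0.934). Its means were 950 CPM in naive-like and 208 CPM in endoderm-like cells (difference -3.28).

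Genes of the set were little related to each other within the 35 naive-like cells. The median Spearman correlation over 1176 pairs was 0.0117, beside 0.0006 over all pairs of genes with at least the lowest mean level of the set. The highest pairs were Kdm3a and Prmt7 (0.583, Pearson 0.326), Kdm1b and Prmt6 (0.539), Sirt6 and Prmt6 (0.510), Ehmt2 and Suv420h1 (0.494) and Kdm6b and Hdac2 (0.457). The lowest were Kdm5a and Hdac1 (-0.518), Kdm3b and Sirt4 (-0.488) and Setdb2 and Setd5 (-0.469). These values are descriptions over 35 cells that share scaling and depth, and the extremes of many pairs. Kdm1b and Prmt6 had reads in 16 and 21 of the 35 cells.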

How the data were processed

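The authors deposited 1 table of raw read counts for each gene, not normalized, which was used for 48 cells on 2 lanes each. Build mm9, featureCounts, Subread 1.4.5-p1 and STAR 2.3.1z12 are named in the submitters' processing notes, whose roles are not stated. How reads that match several genes were counted is not given in the sources used here, so paralogues and pseudogene copies could share reads; the kit does not mark strand. Lanes of a cell differed by about as much as sampling noise, for which the chi-square index is 1 (index 0.964 to 1.045, above 1 in 23 cells; lowest adjusted p = 0.118, 1 cell with an unadjusted p below 0.05) and were summed.

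Counts were scaled to CPM with edgeR 4.0.16 (TMMwsp factors) and taken as log2(CPM + 1). Variance was tested with scran 1.30.0 in R 4.3.3 at an adjusted p of 0.05, in genes averaging 10 or more reads. In simulated data with known spread the test recovered most raised genes and also called some unchanged ones, so false calls can exceed the threshold. Clusters came from Ward clustering of the first 5 principal components over the 500 genes most above the trend; none of the 50 genes was among them, even when allowed. No doublet caller was run, so 2 cells captured together were not looked for, the mixed cells included. Exon lengths came from the GENCODE vM21 annotation of GRCm38, another build than that of the counts, and promoters from RefSeq (GRCm38.p6); neither gave coordinates to the counts. Suv420h1, Suv420h2, Setd8 and Prmt10 were matched under their newer symbols.

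Members, gene lists and the class of mixed cells were chosen with earlier results of these data known. Values are given in full for genes that passed, the 5 highest and 5 lowest ratios, the 8 largest differences each way, the highest and lowest level per length in each role, and the 5 highest and 3 lowest correlations. Alternatives were another scaling, pseudocount, filter, depth, lane, measure of spread and clustering.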

Additional observations from a re-analysis of the deposited data

How the results depend on the processing

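The calls of Kdm5b and Prmt7 over all cells held with library totals alone, scran's pooled factors, no filter, a mean of at least 50 reads, thinned cells, either lane, the highest cell lowered and without the mixed cells. With a pseudocount of 10 CPM 159 genes in all passed in place of 239, and 1 of the set, since Prmt7 was lost (adjusted p = 0.0994 by scran). With the squared coefficient of variation 731 of the 11746 genes passed over all cells, 4 of them in the set. Within naive-like cells 4 of the set passed (Kdm3a, Kdm4b, Kdm4c and Hdac11), which is given without the count over all genes. Why the measures differ was not tested. Genes of the set at least 1 log2 unit apart between clusters numbered 21, but 7 (all lower) with a pseudocount of 10 CPM, which shrinks differences of low genes by construction; all genes then fell to 5.33% lower and 7.55% higher. With a mean of at least 50 reads 16 of 46 were lower, beside 20.2% of all genes. With each cell left out in turn (added after seeing the data) this count ran from 18 to 22, the genes that passed over all cells stayed at 2, and within naive-like cells the count was 0 to 1. Detection in every cell moved to 14 genes with 1 read required. No paired analysis was possible because all cells form 1 group. Depth limits genes near 0 CPM, such as Kdm1b, Hdac7, Hdac10, Hdac11 and Sirt4, for which no read does not show that the transcript is absent.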

Other observations

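Within the 35 naive-like cells each of 49 genes was also set against summed scores of marker lists and against library properties, and the 7 largest values in size are named here, chosen after they were seen and without a test. Setd2, the H3K36 trimethylating enzyme, had a Spearman correlation of 0.527 with the G2-M score, and Sirt1 had 0.426. Kdm2a had 0.516 with the score of primed epiblast genes, and Kdm3b had 0.422 with that of naive genes. Setd8 had 0.421 with reads. Kdm5b had -0.421 with the number of genes with a read and -0.411 with the scaling factor, so the levels of Setd8 and Kdm5b among these cells moved with library properties; their part was not tested.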
